A study of Mus musculus with 6 samples.

Results

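The Krüppel-like factors (KLFs) described here are 10 genes, *Klf2*, *Klf3*, *Klf4*, *Klf5*, *Klf6*, *Klf7*, *Klf9*, *Klf13*, *Klf14* and *Klf15*, out of 36144 gene symbols in the gene table. They were chosen by symbol, as family members that have been studied in fat cells, with earlier results of these data known. Of the 10, 9 passed the filter on low counts and were among the 16069 genes tested, while *Klf14* did not pass. RNA-seq was done on inguinal white adipose tissue (iWAT), a fat depot under the skin, of 10-week-old female C57BL6/J mice that fed freely, with the lymph nodes taken out of both depots. All 6 mice carried the *Cebpa* fl/fl allele, in which Cre can cut out *Cebpa*. The 3 Cebpa_fl/fl mice had no Cre and served as controls. The 3 Cebpa_ASKO mice also carried Cre under the *Adipoq* promoter, which turns on late in adipocyte differentiation, so the other cells of the depot and early precursors keep *Cebpa*. Each library came from one mouse, and all libraries belonged to 1 batch.

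KLFs are transcription factors that share a set of zinc fingers at the C-terminal end and bind GC-rich and CACCC letters in DNA, while their N-terminal parts differ and recruit activators or repressors. In the textbook order of fat cell formation, KLF4 and KLF5 act early, together with C/EBPβ and C/EBPδ, KLF9 and KLF15 act later and help switch on *Pparg* and metabolic genes, and KLF2, KLF3 and KLF7 hold differentiation back. KLF15 is also known for controlling amino acid and glucose use in mature tissues, and KLF2 and KLF4 for their work in endothelial cells. C/EBPα, encoded by *Cebpa*, works with PPARγ to keep the mature adipocyte programme on.

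The deposited libraries held between 33141769 and 49477671 estimated counts. Levels are given as CPM, counts scaled to a common library size with TMM factors, or as TPM, which also divides by transcript length. *Cebpa* itself stood at 447, 465 and 498 CPM in Cebpa_fl/fl and was left at 37.7, 45.8 and 37.2 CPM in Cebpa_ASKO, so every library fits its label. A gene is named as called where the adjusted p of edgeR's quasi-likelihood test was below 0.05, with adjustment across the whole table. By that rule 840 genes, or 5.23%, were called, 223 (1.39%) higher and 617 (3.84%) lower in Cebpa_ASKO. Of a list of 18 adipocyte markers, 11 were called lower. The summed level of the 18 ran from 40530 to 47510 CPM in Cebpa_fl/fl and from 12710 to 15660 CPM in Cebpa_ASKO. In whole tissue, fewer cells of a type and less RNA in each cell cannot be told apart. One control library stood apart: Cebpa_fl/fl 1 had 529 CPM of lymphocyte markers, and the other 5 libraries had between 49.2 and 100.1 CPM. Skeletal muscle markers moved with genotype as well, with a sum of 668 to 953 CPM in Cebpa_fl/fl and 2223 to 6430 CPM in Cebpa_ASKO.

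*Klf15* was the KLF gene that fell in Cebpa_ASKO and *Klf6* the one that rose, and these 2 of 9 tested members were the ones called, beside 5.23% of all genes tested (1.39% higher, 3.84% lower). *Klf15* was also the 1 member past an absolute log2 change of 1, a condition that 3.08% of all genes met together with the adjusted p. It dropped to 27.2% of its control level, and *Klf6* reached 146.6% of it. For *Klf5* the Cebpa_ASKO level was 174.8% of control, with an adjusted p that missed the threshold. It is the third member with an unadjusted p below 0.05, as were 19.8% of all genes tested. The other 6 tested members, *Klf2*, *Klf3*, *Klf4*, *Klf7*, *Klf9* and *Klf13*, had fitted log2 fold changes between -0.06 and 0.35. Over the 9 tested members the median log2 fold change was 0.15, beside 0.02 over all genes tested. The libraries of both genotypes did not overlap in CPM for 4 of the 9 (*Klf5*, *Klf6* and *Klf7* higher, *Klf15* lower), and 26.1% of all genes tested were apart in this way, 12.9% higher and 13.2% lower.

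**Figure D1:**
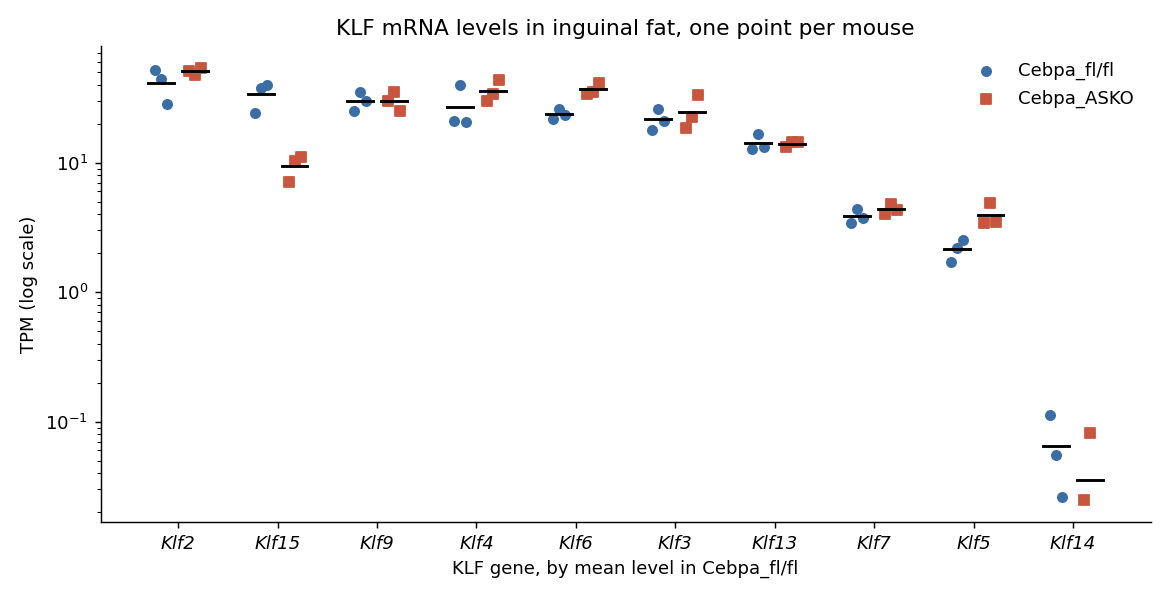
Level of the 10 KLF genes in TPM (log axis), with 1 point per mouse, circles for Cebpa_fl/fl and squares for Cebpa_ASKO, and black bars for the mean of 3 mice. Klf15 lies at 24.4 to 39.7 TPM in Cebpa_fl/fl and at 7.09 to 11.01 TPM in Cebpa_ASKO, and the point of Klf14 in Cebpa_ASKO 2, which is 0, cannot be drawn on a log axis.

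The DNA in front of the called genes is shown first, since it is where KLFs and C/EBPs bind when they act on a promoter. RefSeq promoter windows (GRCm38.p6, 250 bases before and 50 after the annotated start) matched 8 of the 10 members, *Klf2*, *Klf3*, *Klf4*, *Klf6*, *Klf7*, *Klf9*, *Klf13* and *Klf15*, and the runs printed below stop 20 bases after the start. *Klf15* lies on chromosome 6 and its printed run is chr6:90462326-90462595 on the plus strand. *Klf6* lies on chromosome 13 and its window begins at chr13:5861239-5861508 on the plus strand. Capitals mark CACGTG, the E-box letters that clock and MYC-type factors bind. The GC box and CACCC letters that KLFs bind are counted below and are not marked.
Klf15: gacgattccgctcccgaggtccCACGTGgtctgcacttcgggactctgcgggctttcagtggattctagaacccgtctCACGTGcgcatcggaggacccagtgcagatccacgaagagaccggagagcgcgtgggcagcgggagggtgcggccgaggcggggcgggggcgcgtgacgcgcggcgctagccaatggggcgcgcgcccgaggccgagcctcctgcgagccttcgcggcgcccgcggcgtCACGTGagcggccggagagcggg
Klf6: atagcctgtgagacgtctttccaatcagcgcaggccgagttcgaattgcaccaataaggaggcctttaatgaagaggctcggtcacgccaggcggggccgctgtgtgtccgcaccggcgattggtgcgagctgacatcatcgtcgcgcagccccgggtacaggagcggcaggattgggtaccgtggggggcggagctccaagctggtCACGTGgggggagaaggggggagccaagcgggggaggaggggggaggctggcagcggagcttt

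The *Klf15* window holds CACGTG 3 times, beginning at positions -228, -172 and -3 from the start, and the *Klf6* window holds it once, at position -43. *Klf4* is the other member with these letters, so 3 of the 8 windows carry them, beside 7.15% of the 32851 promoters in the table and 9.18% of the 15216 promoters of tested genes. At least 3 matches were found in 0.0883% of all promoters, which had a median of 52.7% G or C, beside 73.3% in the *Klf15* window. The C/EBP letters TTGCNNAA were in 0 of the 8 windows on either strand, beside 10.8% of all promoters, which says only that these letters are not in these windows. The GC box GGGCGG was in 7 of the 8 windows and in 57.8% of the promoters of tested genes, and CACCC was in 6 of the 8 and in 63.3%. CCAAT was in 4 windows, 4 times in that of *Klf6*, and in 37.3% of the promoters of tested genes. The letters of the cAMP response element (TGACGTCA) and of the core of the glucocorticoid response element (ACANNNTGT) were in 0 of the 8. They were in 2.71% and 4.67% of the promoters of tested genes, so 0 of 8 windows shows no lack of them. All letters were searched on both strands, and overlapping matches were counted. The 8 windows were GC-rich, with a median of 70.7% G or C, beside 59.7% for the promoters of tested genes.

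*Klf15*, the late-acting family member that raises *Slc2a4* and *Pparg* in fat cells and amino acid catabolism in liver and muscle, covers chr6:90462576-90475238 on the plus strand (GRCm38, GENCODE M21). Its level was 43.7, 59.7 and 66.1 CPM in Cebpa_fl/fl and 11.9, 16.9 and 17.3 CPM in Cebpa_ASKO. Every knockout library was below every control, and the lowest control stood well clear of the highest knockout. The fitted log2 fold change was -1.88 (SE 0.206, 95% interval -2.37 to -1.39, edgeR adjusted p = 0.00435). It was called in all 17 settings that gave it a test, with values from -2.03 to -1.73. Of the 617 genes called lower, 178 had a larger fitted fall than *Klf15*, and so did 7 of the 18 adipocyte markers.

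Set against *Adipoq*, the adipocyte hormone gene whose promoter drives the Cre, *Klf15* was higher in every Cebpa_ASKO library. Its TPM was 1.22% ± 0.271 (SD, n = 3) of the *Adipoq* TPM in Cebpa_fl/fl and 2.49% ± 0.578 in Cebpa_ASKO, and the libraries did not overlap. The exact two-sided permutation test gave p = 0.1, the smallest that 3 against 3 allows. *Adipoq* itself fell by 2.93 on the log2 scale and is among the 7 adipocyte markers that fell more than *Klf15*. The median log2 fold change of the 18 adipocyte markers was -1.29, beside -1.88 for *Klf15*, so the direction of such a ratio depends on the marker taken. Skeletal muscle, where *Klf15* is also active, had a marker sum that was higher in every Cebpa_ASKO library, as given above. So were the sums of epithelial, smooth muscle and pericyte, and Schwann cell markers, and the part of any of these cells in the *Klf15* level was not tested. *Klf15* is known to be raised by glucocorticoids. Of 16 genes of the glucocorticoid response 1 was called higher and 0 lower, beside 1.39% and 3.84% of all genes tested. The gene called was *Cdkn1a*, a brake on the cell cycle, at a log2 fold change of 0.50 (edgeR adjusted p = 0.0380). That call was lost in each of the 6 fits that left out a library. DESeq2 called 2 of the 16, *Cdkn1a* and *Zbtb16*, beside 10.3% of its genes. *Zbtb16*, a zinc finger gene named after its values were seen, stood at a log2 fold change of -0.97 in edgeR with overlapping groups (edgeR adjusted p = 0.166). Of the 16, 3 had an unadjusted p below 0.05, beside 19.8% of all genes tested.

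The fall of *Klf15* was seen in 3 of its transcripts. The files list 5, of which 4 share a coding part of 1245 bases, with starts at different places, and Klf15-205 has a coding part of 458 bases. Klf15-201, which starts at the promoter shown above, had 17.6 ± 3.85 TPM in Cebpa_fl/fl and 4.97 ± 2.24 TPM in Cebpa_ASKO. Klf15-204, which begins at base 90466400, went from 8.07 ± 5.64 to 1.63 ± 0.702 TPM, and Klf15-205 from 7.26 ± 1.79 to 1.66 ± 0.620 TPM. For these 3 transcripts, no Cebpa_ASKO library reached the lowest control. The minor transcripts overlapped between genotypes, Klf15-202 at 0.830 ± 0.299 and 0.957 ± 0.831 TPM and Klf15-203 at 0.201 ± 0.205 and 0.239 ± 0.239 TPM. The share of Klf15-201 in the gene was 52.9% ± 10.3 and 50.6% ± 15.3 (exact permutation p = 0.8), so no shift between starts was detectable with 3 mice a group. kallisto divides reads among overlapping transcripts, so these shares are estimates.

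*Klf9*, another late-acting member and a known target of glucocorticoids and thyroid hormone, covers chr19:23141226-23168134 and contains a microRNA gene. It had 96.3, 121.5 and 108.5 CPM in Cebpa_fl/fl and 115.0, 117.2 and 81.2 CPM in Cebpa_ASKO. The groups overlapped, with the highest value in a control and the lowest in a knockout. The log2 fold change was -0.06 (95% interval -0.45 to 0.34, edgeR adjusted p = 0.899), and its sign turned without Cebpa_fl/fl 2 (0.0164) and without Cebpa_ASKO 3 (0.0766). The ratio of *Klf15* to *Klf9* in TPM was 1.12 ± 0.174 in Cebpa_fl/fl and 0.324 ± 0.106 in Cebpa_ASKO, without overlap (exact permutation p = 0.1). It contains the fall of *Klf15* and is not separate support for it.

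*Klf6*, a widely used member that represses the preadipocyte gene *Dlk1* and is quickly induced by injury and serum, covers chr13:5861482-5870394. It had 78.8, 82.8 and 77.7 CPM in Cebpa_fl/fl and 120.6, 110.9 and 119.5 CPM in Cebpa_ASKO. Both groups were tight and clearly separate. On the log2 scale the rise was 0.55 (SE 0.0789, 95% interval 0.36 to 0.74, edgeR adjusted p = 0.0118). Of the 223 genes called higher, 193 had a larger fitted rise. The direction held in all 17 settings, and the call in 12. It was lost without Cebpa_fl/fl 1 (edgeR adjusted p = 0.0570), without Cebpa_fl/fl 3 (0.0519) and without Cebpa_ASKO 1 (0.0709). Klf6-201, the full-length transcript, carried the rise, from 23.3 ± 2.00 to 35.5 ± 2.49 TPM.

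*Klf5*, which C/EBPβ and C/EBPδ switch on early in differentiation and which then acts on *Pparg*, covers chr14:99298691-99315036. It is one of the low members, with 220, 265 and 320 counts in the Cebpa_fl/fl libraries and 306, 476 and 374 in Cebpa_ASKO. Scaled for depth this was 4.90, 5.62 and 6.78 CPM in Cebpa_fl/fl against 9.70, 12.2 and 8.39 CPM in Cebpa_ASKO. Every knockout was above every control, on the TPM scale too. The log2 fold change was 0.81 (SE 0.198, 95% interval 0.33 to 1.28), with an unadjusted p of 0.00525 in the model over all genes and an edgeR adjusted p of 0.0749, and the interval is not adjusted for the number of genes. DESeq2, which called 10.3% of its genes, was the 1 setting that called it (adjusted p = 0.00662).

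*Klf5* is also a gene of glandular epithelium, and inguinal fat of female mice surrounds the mammary gland. The summed level of 16 markers of mammary and ductal epithelium was 1194, 860.4 and 1681 CPM in Cebpa_fl/fl and 2282, 2157 and 2279 CPM in Cebpa_ASKO. That sum was higher in all 3 knockouts too. Of the 16 markers, edgeR called 0, beside 5.23% of all genes tested. An unadjusted p below 0.05 was found for 11, beside 19.8% of all genes tested. DESeq2 called 6, beside 10.3% of its genes, and the median log2 fold change was 0.65. As a share of that sum, *Klf5* was 0.410%, 0.653% and 0.403% in Cebpa_fl/fl and 0.425%, 0.563% and 0.368% in Cebpa_ASKO. Taken this way the groups overlapped (exact permutation p = 0.7), and the part of epithelial cells in the *Klf5* level was not tested.

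*Klf4*, an early activator of *Cebpb* that endothelial cells and macrophages also express, covers chr4:55527143-55532466 on the minus strand. It had 52.7, 89.9 and 48.6 CPM in Cebpa_fl/fl and 75.5, 74.6 and 93.8 CPM in Cebpa_ASKO. A single control, Cebpa_fl/fl 2, lay among the knockouts. Together they gave a log2 fold change of 0.35 (95% interval -0.23 to 0.94, edgeR adjusted p = 0.498). Without Cebpa_fl/fl 2 it was 0.67 and was called (edgeR adjusted p = 0.0459), while without Cebpa_fl/fl 1, Cebpa_fl/fl 3 or Cebpa_ASKO 3 it was 0.23, 0.19 and 0.22 and was not called. The same library had the highest sums of macrophage markers, 3393 CPM beside 1290 to 2914 CPM in the other 5, and of fibroblast and progenitor markers, 16010 CPM beside 8962 to 13680 CPM. The part of these cells in the *Klf4* level was not tested.

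**Figure D2:**
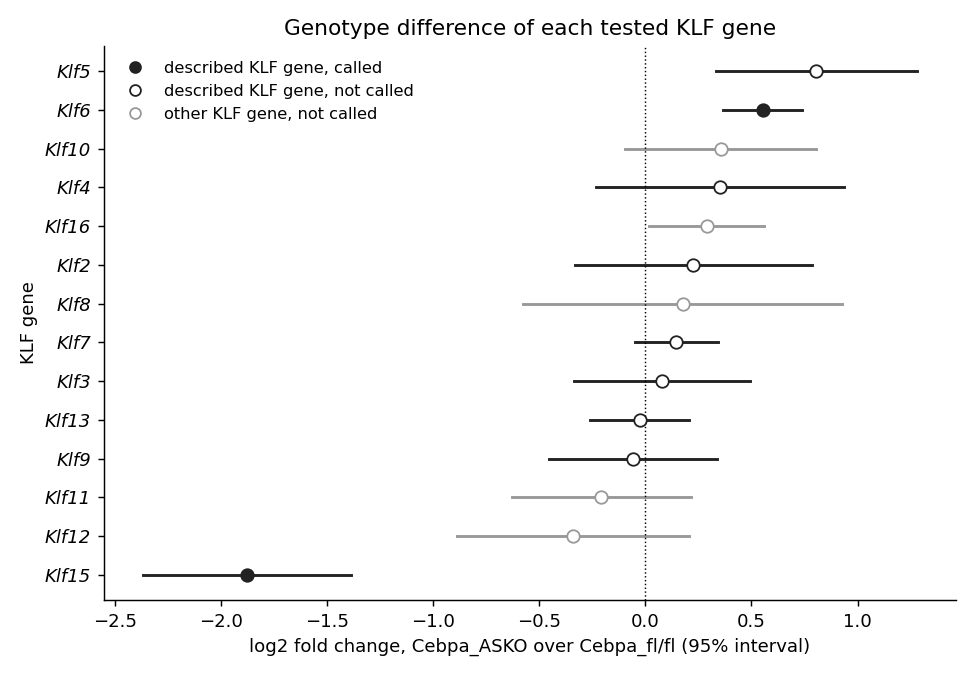
Fitted log2 fold change of each tested KLF gene, Cebpa_ASKO over Cebpa_fl/fl, with 95% intervals from edgeR that are not adjusted for the number of genes; black marks the 9 described members, grey the 5 other tested KLF genes, and filled points are called. Klf15 at -1.88 and Klf6 at 0.55 are the filled points, and the open point of Klf5 lies farthest to the right at 0.81.

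The members that hold differentiation back showed no call. *Klf2*, which represses *Pparg* in preadipocytes and keeps endothelial cells and resting lymphocytes quiescent, covers chr8:72319033-72321656. It had 77.9, 59.1 and 39.7 CPM in Cebpa_fl/fl and 75.8, 61.9 and 69.0 CPM in Cebpa_ASKO. The controls spread widely and enclosed the knockouts. This gave a log2 fold change of 0.23 (95% interval -0.33 to 0.78, edgeR adjusted p = 0.677). Its highest value was in Cebpa_fl/fl 1, the library with 5.29 times the lymphocyte markers of the next highest, and without that library the log2 fold change was 0.48 (edgeR adjusted p = 0.319). Without Cebpa_fl/fl 3, the lowest control, it was 0.0064 (edgeR adjusted p = 0.989), and without Cebpa_ASKO 1 it was 0.15. In mean TPM *Klf2* was the highest member in both genotypes, though in Cebpa_fl/fl 3, at 28.4 TPM, it lay below *Klf15* and *Klf9*.

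*Klf3*, which recruits the corepressor CtBP and represses *Cebpa*, covers chr5:64803388-64832901 and overlaps an antisense transcript and a same-strand transcript; the strand setting of the counting is not given in the sources used here, so reads from these cannot be told apart. It had 70.3, 95.96 and 70.4 CPM in Cebpa_fl/fl and 74.1, 75.7 and 100.3 CPM in Cebpa_ASKO. Each group had one high library, and the groups overlapped. The log2 fold change was 0.08 (95% interval -0.34 to 0.50, edgeR adjusted p = 0.865) and turned to -0.0931 without Cebpa_ASKO 3. *Klf7*, on chr1:64029447-64122282 with overlapping antisense genes and the same limit, is known to inhibit adipocyte differentiation. It had 22.5, 22.7 and 22.9 CPM in Cebpa_fl/fl and 24.3, 27.1 and 24.1 CPM in Cebpa_ASKO. The controls were nearly equal and all 3 knockouts lay just above them, while on the TPM scale the groups overlapped. Its log2 fold change was 0.15 (95% interval -0.05 to 0.34, edgeR adjusted p = 0.394).

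*Klf13*, which has been linked to *Pparg* activation and is known from T lymphocytes and heart, covers chr7:63886351-63938915 and overlaps genes on the other strand, again with reads that cannot be told apart. It had 64.8, 75.1 and 61.5 CPM in Cebpa_fl/fl and 67.1, 67.5 and 63.1 CPM in Cebpa_ASKO. The groups overlapped and differed little. The log2 fold change was -0.03 (95% interval -0.26 to 0.21, edgeR adjusted p = 0.924), with a sign that turned under total-count scaling and without Cebpa_fl/fl 2.

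*Klf14*, a single-exon imprinted gene known from human genetics as a regulator of fat gene networks, covers chr6:30956023-30959078. It had 13, 6 and 3 counts in Cebpa_fl/fl and 2, 0 and 8 in Cebpa_ASKO, or at most 0.112 TPM. At this depth no difference was detectable, and the gene was not tested.

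**Figure D3:**
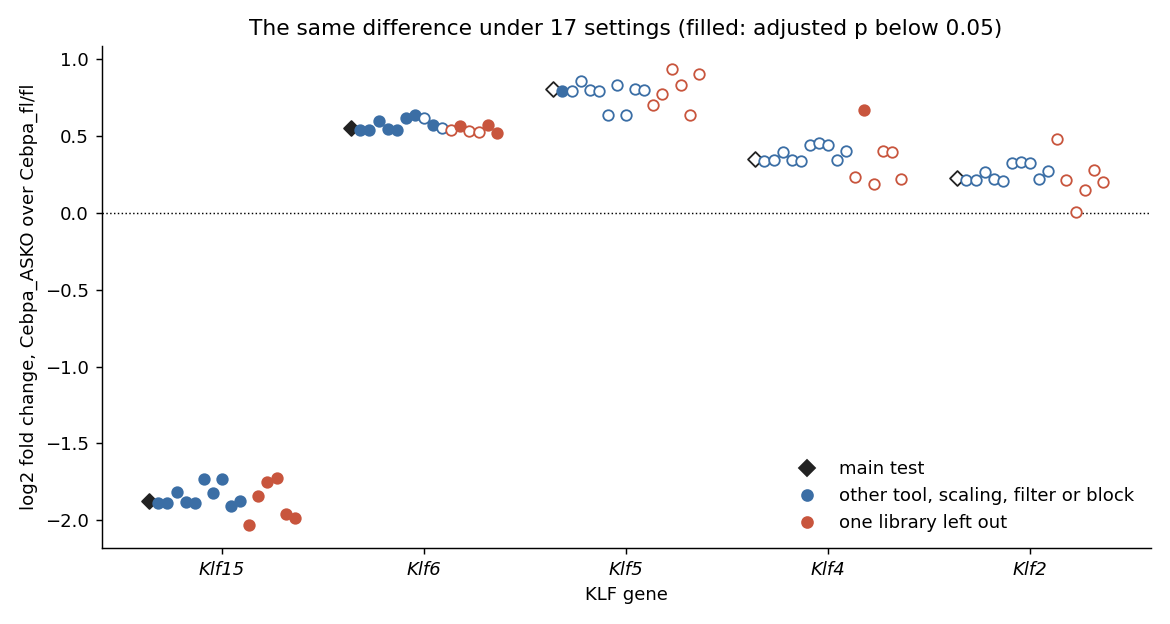
Log2 fold change of 5 KLF genes in each of the 17 settings that gave a test: the main test (diamond), another tool, scaling, filter or the replicate block (blue) and fits that left out one library (red), filled where the adjusted p was below 0.05. Klf15 is filled throughout, Klf6 in 12, and Klf5 and Klf4 in 1 each.

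Compared per length, in TPM, *Klf2* had the highest mean and *Klf14* the lowest in both genotypes. In Cebpa_fl/fl the order was *Klf2* (41.6 ± 12.1 TPM), *Klf15* (33.9 ± 8.33), *Klf9* (30.1 ± 5.19), *Klf4* (27.0 ± 10.8), *Klf6* (23.7 ± 1.98), *Klf3* (21.5 ± 4.16), *Klf13* (14.1 ± 2.12), *Klf7* (3.86 ± 0.510), *Klf5* (2.16 ± 0.418) and *Klf14* (0.0645 ± 0.0435). From *Klf2* down to *Klf3*, neighbours overlapped in their library values, so their order is not fixed, while each step from *Klf3* downward was a gap. In Cebpa_ASKO the order was *Klf2* (50.9 ± 3.38 TPM), *Klf6* (36.9 ± 3.79), *Klf4* (35.7 ± 7.19), *Klf9* (29.99 ± 5.004), *Klf3* (24.7 ± 7.62), *Klf13* (14.02 ± 0.647), *Klf15* (9.46 ± 2.08), *Klf7* (4.39 ± 0.393), *Klf5* (3.93 ± 0.834) and *Klf14* (0.0355 ± 0.0419). By its mean *Klf15* stood second in the controls, a place it did not hold library by library. *Klf2* and *Klf9* lay above it in Cebpa_fl/fl 1, *Klf2* and *Klf4* in Cebpa_fl/fl 2, and no member in Cebpa_fl/fl 3. In the knockouts *Klf15* stood seventh by its mean, below *Klf13* in each library. The neighbours from *Klf6* to *Klf3*, and *Klf7* and *Klf5*, overlapped.

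The summed level of the 10 genes was 198 ± 29.3 TPM in Cebpa_fl/fl and 210 ± 19.7 TPM in Cebpa_ASKO and overlapped (exact permutation p = 0.6). The shares of the 2 called members in that sum differed by genotype. *Klf15* was 13.6%, 16.3% and 21.7% of it in Cebpa_fl/fl and 3.71%, 4.93% and 4.77% in Cebpa_ASKO. *Klf6* was 12.2%, 11.1% and 12.8% in Cebpa_fl/fl and 17.9%, 16.99% and 17.9% in Cebpa_ASKO. Neither share overlapped between genotypes (exact permutation p = 0.1 for each). The 2 genes were taken because they were called, so their shares restate those calls and are not separate support. The ratio of *Klf15* to *Klf5*, the tested members with the largest fall and the largest rise, was 15.6 ± 1.43 in Cebpa_fl/fl and 2.45 ± 0.630 in Cebpa_ASKO. Both genes were already apart in opposite directions, so this ratio had to separate. The other late member *Klf9* and the other early member *Klf4* overlapped between genotypes.

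**Figure D4:**
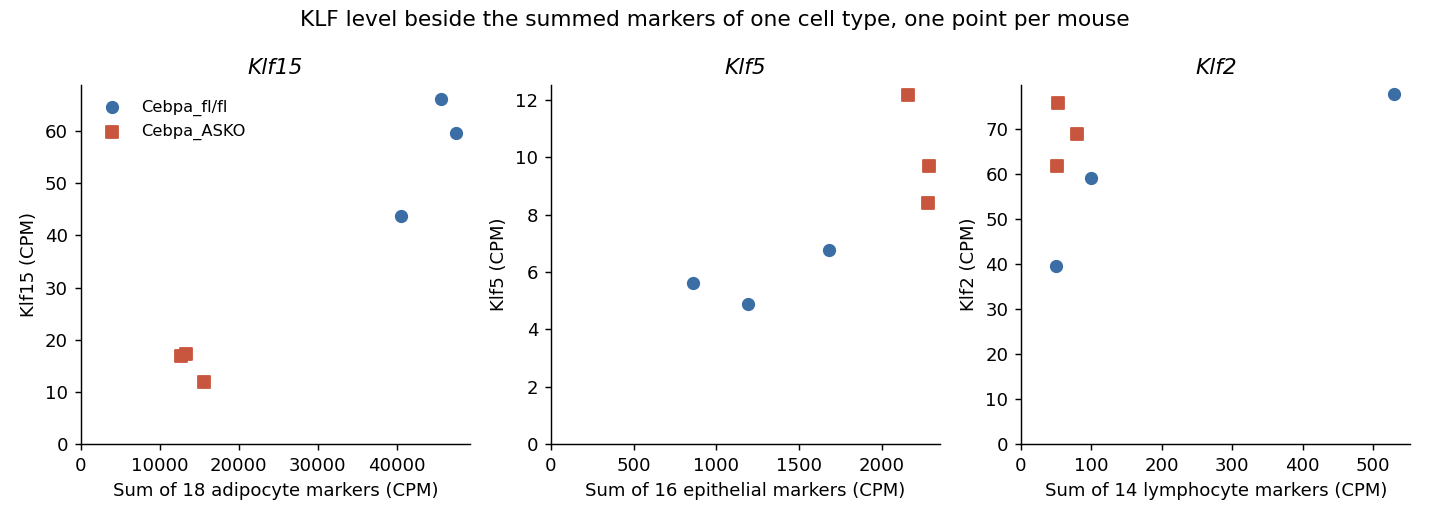
CPM of Klf15, Klf5 and Klf2 (vertical axes) beside the summed CPM of markers of adipocytes, mammary and ductal epithelium, and lymphocytes (horizontal axes), 1 point per mouse, circles for Cebpa_fl/fl and squares for Cebpa_ASKO. Adipocyte markers and Klf15 are both lower in every Cebpa_ASKO mouse, epithelial markers and Klf5 both higher, and 1 control with 529 CPM of lymphocyte markers has the highest Klf2.

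Among the rest of the zinc finger family, the 5 other tested KLF genes had log2 fold changes from -0.34 to 0.36. Of these, edgeR and DESeq2 called 0, and 1 had an unadjusted p below 0.05, beside 19.8% of all genes tested. Beside 5.23% of all genes tested, 1 of 6 tested SP genes, the closest relatives of the KLFs, was called. This was *Sp7*, the osterix gene of bone-forming cells, with 59 counts over the 3 Cebpa_fl/fl libraries and 0 over the 3 Cebpa_ASKO libraries. A count of 0 over the group allows up to 3 counts, and the control mean was 16.02-fold above that level, with the spread of the controls left out. *Sp7* was low, at 0.177 ± 0.0493 TPM in Cebpa_fl/fl, and was called in 9 of the 14 settings that tested it. It stayed called only without Cebpa_fl/fl 2 and without Cebpa_ASKO 3 among the fits that left out a library.

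The genes of proteins that KLFs work with had few calls. Of 21 cofactors and modifiers, such as CtBP and SIN3 corepressors, histone acetyltransferases and ubiquitin ligases, edgeR called 0, with 4 at an unadjusted p below 0.05, and DESeq2 called 1. That gene was *Nr3c1*, the glucocorticoid receptor, named after its values were seen. It had 172, 176 and 175 CPM in Cebpa_fl/fl and 129, 117 and 149 CPM in Cebpa_ASKO, with overlap in TPM (log2 fold change -0.40, edgeR adjusted p = 0.0978). Of 8 genes of the MEK5, ERK5 and MEF2 pathway, which drives *Klf2* and *Klf4* in endothelium, both tools called 0, with 2 at an unadjusted p below 0.05. Of 18 clock genes edgeR called 0 and DESeq2 called 2, with 3 at an unadjusted p below 0.05. For these 3 lists, the shares over all genes were 5.23% called by edgeR and 10.3% by DESeq2. An unadjusted p below 0.05 was reached by 19.8% of all genes tested. Immediate early genes are the fast response to stimulation and handling that includes factors induced together with *Klf6* and *Klf4*. They were called higher in 3 of 20 cases and lower in 0, beside 1.39% and 3.84% of all genes tested. Those called were *Jun* at a log2 fold change of 0.57, *Fosl2* at 0.52 and *Myc* at 0.45, while the median of the 20 was 0.26. *Jun* and *Myc* stayed called only without Cebpa_fl/fl 2, and *Fosl2* in none of the fits that left out a library.

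The adipogenic factors that KLFs act on or with moved both ways. Of 13, 4 were called lower and 1 higher, beside 3.84% and 1.39% of all genes tested. *Cebpa* fell by 3.55 on the log2 scale (edgeR adjusted p = 0.000163), and *Pparg*, the master regulator of fat cells, by 0.78 (edgeR adjusted p = 0.0125), from 171, 162 and 196 CPM to 106, 110 and 93.1 CPM. *Pparg* was not called without Cebpa_ASKO 1 (edgeR adjusted p = 0.0700). *Zfp423*, a factor of preadipocyte commitment, fell by 0.55, and *Rxra*, the partner of PPARγ, named after its values were seen, by 0.54. *Zfp423* was called in none of the fits that left out a library and *Rxra* only without Cebpa_fl/fl 1 and without Cebpa_fl/fl 2.

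*Cebpg*, a C/EBP that lacks an activation domain of its own, rose from 71.6, 83.3 and 75.4 CPM to 225, 199 and 166 CPM, a log2 fold change of 1.36 (edgeR adjusted p = 0.00316). The early C/EBPs that stand upstream of *Klf5* did not pass edgeR's threshold. *Cebpb* was 153, 110 and 102 CPM in Cebpa_fl/fl and 191, 174 and 136 CPM in Cebpa_ASKO, overlapping in CPM (log2 fold change 0.46, edgeR adjusted p = 0.257). In TPM all 3 knockouts of *Cebpb* lay above all controls. *Cebpd* was 28.1, 31.2 and 24.4 CPM and 55.9, 54.8 and 35.9 CPM, all 3 knockouts above all controls (log2 fold change 0.81, edgeR adjusted p = 0.0650). DESeq2 called *Cebpd*, as edgeR did without Cebpa_ASKO 3 (adjusted p = 0.0171).

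Of 13 metabolic genes listed as targets of KLF15, 5 were called lower and 1 higher, beside 3.84% and 1.39% of all genes tested. The median log2 fold change of the 13 was -0.37. In the adipocyte list 11 of 18 were called lower, with a median of -1.29. The list of KLF15 targets was written from general knowledge with earlier results of these data known, and its genes are not targets shown in this tissue. *Gpt2*, the mitochondrial alanine transaminase, had 111, 126 and 160 CPM in Cebpa_fl/fl and 21.7, 23.5 and 25.2 CPM in Cebpa_ASKO, a log2 fold change of -2.50 (edgeR adjusted p = 0.000724). *Bcat2*, which takes the amino group from branched-chain amino acids, had 211, 252 and 247 CPM and 58.1, 51.4 and 63.5 CPM, a log2 fold change of -2.03 (edgeR adjusted p = 0.000724). In both, no library of one genotype reached the other.

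*Prodh*, proline dehydrogenase, and *Pck1*, which makes phosphoenolpyruvate for glycerol synthesis in fat, each fell by 1.72 on the log2 scale (edgeR adjusted p = 0.00749 and 0.00918). *Pck1* also stands in the adipocyte list. *Gpt2*, *Bcat2*, *Prodh* and *Pck1* were called in all 17 settings, as *Klf15* was. *Acsl1*, an acyl-CoA synthetase, and *Got1*, the cytosolic aspartate transaminase, are named after their values were seen. *Acsl1* stood at a log2 fold change of -1.58 and *Got1*, the gene called higher, at 0.88. *Got1* stayed called only without Cebpa_fl/fl 2 among the fits that left out a library. *Slc2a4*, the insulin-regulated glucose transporter, also named after its values were seen, was 196, 169 and 272 CPM in Cebpa_fl/fl and 232, 232 and 173 CPM in Cebpa_ASKO, with a log2 fold change of 0.00 (edgeR adjusted p = 0.998).

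Of 10 tested genes listed as endothelial targets of KLF2 and KLF4, 2 were called lower and 0 higher, beside 3.84% and 1.39% of all genes tested. *Nos3*, the endothelial nitric oxide synthase, had 44.0, 38.1 and 61.2 CPM in Cebpa_fl/fl and 9.89, 9.11 and 14.8 CPM in Cebpa_ASKO, a log2 fold change of -2.08 (edgeR adjusted p = 0.00610). *Cav1*, the caveolin of endothelial cells and adipocytes, fell by 1.12 (edgeR adjusted p = 0.0110, and 0.0630 without Cebpa_ASKO 2). Of 15 endothelial markers, edgeR called 2 lower. *Cldn5* stayed called only without Cebpa_ASKO 2 and without Cebpa_ASKO 3, and *Emcn* only without Cebpa_ASKO 3. The log2 fold change was below 0 for 14 of the 15, beside 7402 of 16069 genes tested, with a median of -0.43. An unadjusted p below 0.05 was found for 7, beside 19.8% of all genes tested, and DESeq2 called 5, beside 10.3% of its genes. The sum of the endothelial markers was 536 to 653 CPM in Cebpa_fl/fl and 384 to 527 CPM in Cebpa_ASKO. *Klf2* and *Klf4*, which these cells use, had fitted log2 fold changes of 0.23 and 0.35 and were not called. The part of endothelial RNA in the *Nos3* level was not tested.

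Of the remaining cell type lists, which show what else the tissue held, skeletal muscle had 14 of 20 markers called higher, led by *Myh4*, *Ckm*, *Atp2a1* and *Actn3*, Schwann cells 2 of 9 (*S100b* and *Ncmap*), and smooth muscle and pericytes 1 of 11 (*Abcc9*). Over all genes tested, 1.39% were called higher. Among the 6 fits that left out a library, the calls of *S100b*, *Ncmap* and *Abcc9* held in 3, 1 and 4. The call of *Myh4* held in all 6, that of *Ckm* and of *Actn3* in 3 (lost without Cebpa_fl/fl 1, Cebpa_fl/fl 3 or Cebpa_ASKO 1) and that of *Atp2a1* in 2 (lost without Cebpa_fl/fl 2 as well). Adipocyte markers that fell were led by *Retn*, *Cfd*, *Adipoq* and *Cidec*. Fibroblast and progenitor markers (15 tested), macrophage markers (14), keratinocyte markers (5) and lymphocyte markers (13) had 0 called by edgeR. At an unadjusted p below 0.05 these lists held 0, 1, 0 and 10 genes, and DESeq2 called 0, 0, 0 and 3. The skeletal muscle, Schwann cell, and smooth muscle and pericyte lists held 15, 4 and 7, and DESeq2 called 15, 3 and 3. Over all genes, 19.8% of those tested had an unadjusted p below 0.05, and DESeq2 called 10.3% of its genes.

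The genes most like *Klf15* over the 6 libraries, among 8657 genes whose log2 CPM averaged 4 or more, were *Snrnp200*, *Parp6* and *Tmem33* (Pearson r of log2 CPM 0.9998, 0.995 and 0.994), and 225 genes had an r above 0.95. Those most like *Klf2* were *Smarca5*, *Rpl35a* and *Snrpd2* (r 0.9902, 0.988 and 0.973), with 18 genes above 0.95. These correlations describe 6 points that share a genotype split and library depth, and none of these 6 genes was called.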

How the data were processed

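The members and gene lists were chosen with earlier results of these data known. Total RNA of both iWAT depots was made into poly-A libraries. Per the labels and submitters' processing notes, kallisto 0.44.0 quantified transcripts. For each transcript the authors deposited estimated counts, without normalization, and TPM, a share per length; TPM was also deposited summed per symbol. The notes name GRCm38.p6 beside a human build; the annotation release and strand setting are not given in the sources used here. Transcripts were matched to GENCODE M21 (116816 of 118489), and estimated counts were summed per symbol and rounded. Totals per library were 46237121, 46601320 and 49477671 in Cebpa_fl/fl and 33141769, 37957065 and 42243013 in Cebpa_ASKO; tested members had 220 to 5735 counts per library.

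The main test was the quasi-likelihood test of edgeR 4.0.16 (R 4.3.3) with TMM scaling, the default low-count filter and Benjamini-Hochberg adjustment over 16069 genes, checked on simulated data. DESeq2 1.42.0, which the study used, limma 3.58.1 on log2(TPM + 1) or log2(TPM + 0.1), other scalings, filters, a length offset, a replicate block and leaving out each library were alternatives. CPM values are TMM-normalized. Single values were compared by exact two-sided permutation over 20 arrangements. With 1 mouse per library, the fitted tests set the genotype difference against the spread between mice, estimated with information shared over genes. All 10 members were named, with the called genes of each list (at most 4, by size of change), *Cebpa*, *Cebpb*, *Cebpd* and *Pparg*, and the 3 genes most like the most changed and the highest member. Exceptions are marked as named after their values were seen.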

Additional observations from a re-analysis of the deposited data

How the results depend on the processing

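*Klf15* stayed called and *Cebpa* fell, also called, in all 16 alternatives, and no setting moved the median of all genes by over 0.1 from the main one. The 840 genes called became 1801 with DESeq2 (37.1% of them higher, beside 26.5%), 359 with limma on log2(TPM + 1) without a filter, 495 when a log2 change of 1 or more in either direction was also asked, and between 312 and 922 when one library was left out (508 without Cebpa_fl/fl 1, 502 without Cebpa_fl/fl 3, 312 without Cebpa_ASKO 1 and 363 without Cebpa_ASKO 2). The 223 higher calls became 65, 103, 33 and 66 in these 4 fits, or 10.6% of all calls without Cebpa_ASKO 1 and 12.8% without Cebpa_fl/fl 1. The KLF genes called went from 2 to 1 with limma without a filter, with the replicate block and with the fold condition, and lay between 1 and 3 when one library was left out (1 without Cebpa_fl/fl 1, Cebpa_fl/fl 3 or Cebpa_ASKO 1). The 47 genes called in the lists became 75 with DESeq2, 22 with limma without a filter and between 18 and 43 when one library was left out (23, 24, 18 and 24 without Cebpa_fl/fl 1, Cebpa_fl/fl 3, Cebpa_ASKO 1 and Cebpa_ASKO 2). The cause was not tested. *Klf6* was not called with limma without a filter (0.62, adjusted p = 0.0613), and *Klf13* turned to 0.0176 under total-count scaling. With one library left out, *Klf2* ranged from 0.0064 to 0.48, *Klf4* from 0.19 to 0.67, *Klf3* from -0.0931 to 0.234, *Klf9* from -0.166 to 0.0766 and *Klf13* from -0.0868 to 0.0495.

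No pairing by replicate number was seen. The deviations of same-numbered libraries from their group means correlated at 0.0661, 0.0277 and -0.201, and no library correlated best with its own number. Deviations from means of 3 cannot exclude pairing. The paper states that mice of both genotypes were littermates, and pairing by litter was not tested. With the replicate block 370 genes were called in all and 26 in the lists, and *Klf6* missed the threshold (adjusted p = 0.0800).

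Depth limited *Klf14*, with at most 13 counts in a library. Groups of 3 give an exact permutation p of 0.1 at best. Whole tissue mixes cell types, and the sums of adipocyte, muscle, epithelial and endothelial markers all differed between genotypes without overlap.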
